A study of Mus musculus with 30 samples.

Results

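The tumor necrosis factor (TNF) ligand and receptor superfamily was read in 30 Affymetrix MOE430 2.0 arrays of mouse CD11b+ myeloid cells. Members were all gene symbols of the array annotation that begin with Tnfsf or Tnfrsf and a number, together with Fas, Fasl, Lta, Ltb, Ltbr, Cd27 and Cd70, each represented by the probe set of 1 symbol with the highest mean over the 30 arrays. Of 36 such symbols, 34 had a probe set of their own among the 18194 genes tested, namely 11 ligands, 22 receptors and the opposite-strand transcript Tnfsf13os. Tnfsf12 and Tnfsf13 were represented only on probe sets that carry several symbols. Family genes with other kinds of symbol, such as Tnf, Cd40 and Cd40lg, fell outside this rule and were not counted.

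Each of the 10 groups held 3 arrays. CD11b+ cells had been enriched with magnetic beads from GM-CSF+IL-6 cultures and GM-CSF+G-CSF cultures of BALB/c bone marrow, each kept for 4 days, and from fresh BALB/c bone marrow, which served as their reference. Cells of tumor-bearing mice came from 4T1 tumors, C26-GM tumors and C26-GM spleens of BALB/c mice, with healthy BALB/c spleen as reference, and from EL-4 tumors and MCA203 tumors of C57BL/6 mice, with healthy C57BL/6 spleen as reference. C26-GM is a colon carcinoma line that makes GM-CSF, 4T1 a mammary carcinoma, EL-4 a T cell lymphoma and MCA203 a fibrosarcoma. The study set such tumor-induced and cultured cells, known as myeloid-derived suppressor cells, against CD11b+ cells of healthy mice. No CD11b+ cells of a normal solid tissue were among the references, so a difference between a tumor and a spleen also holds the difference between organs. One label of the healthy C57BL/6 spleens named BALB/c, while their titles and strain label named C57BL/6, which was used.

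Ligands of the family are trimeric proteins, held in the membrane or released from it, and each binds 1 or a few receptors. Receptors with a death domain, such as Fas, can start caspase-driven cell death, and receptors without one recruit TRAF adaptors and lead to NF-kB and stress kinases. Decoy receptors bind ligand with no signalling death domain, and the costimulatory receptors 4-1BB, OX40, GITR and CD27 sustain activated lymphocytes. BAFF and APRIL, made in large part by myeloid cells, keep B cells and plasma cells alive.

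The array values are log2 units from robust multi-array averaging, and every change below is the log2 difference between group means ± its standard error from 1 limma fit over all arrays. A gene was called changed at a Benjamini-Hochberg adjusted p below 0.05, over all 18194 genes of a comparison, and at least 2-fold. With n = 3 arrays a group, the number of arrays sets the precision. The labels do not say that replicates were separate animals or cultures, so p-values measure the spread between these samples. This spread was pooled per gene over all 10 groups, those with uneven arrays included. A gene therefore had the same standard error in every comparison of 1 group with another. In enriched but mixed cells, fewer cells of a type and less RNA per cell cannot be told apart.

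Several arrays stood apart from their groups. Replicates 1 and 2 of the GM-CSF+IL-6 culture and replicates 1 and 3 of the GM-CSF+G-CSF culture had interquartile ranges of 2.54 to 2.60, against 3.28 to 3.37 on the remaining culture array of each group, and these are called narrow and wide arrays here. The third C26-GM tumor array showed the strongest 3' bias in its actin probe sets, a difference of 2.42 between 3' and 5' signal. Xist, the X-inactivation RNA, was at 5.15 to 6.47 on the C26-GM arrays and at 10.06 to 11.12 elsewhere, so the sex of the mice and the C26-GM condition cannot be told apart. The CD11b gene Itgam was at 9.15 to 11.61 on all arrays. The lowest value was on the third C26-GM tumor array, against 11.61 and 11.25 on the first and second arrays of that group. Other lineages moved between groups: against healthy spleen, B cell markers were called lower for 7 or 8 of 9 genes in all tumor-bearing groups, and neutrophil markers for 9 of 10 genes in EL-4 tumors and 10 of 10 in MCA203 tumors. Monocyte and macrophage markers were called lower for 7 of 10 genes in C26-GM tumors and 3 in C26-GM spleens, with 0 higher. In each other tumor 1 was lower, with 0 higher in 4T1, 1 in EL-4 and 3 in MCA203 tumors. C26-GM tumors against C26-GM spleens had 6 lower, and fresh marrow against healthy BALB/c spleen 9, with 0 higher in either. Their part in the values of members was not tested.

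The promoters of 3 members are printed first because these genes gave the patterns that recur below: Tnfrsf9, called higher in every tumor group and both cultures, Ltb, called lower in every tumor group, and Tnfsf13b, called in opposite directions in EL-4 and MCA203 tumors. Each run gives 300 bases around an annotated RefSeq start on GRCm38.p6, on the plus strand, with matches to the NF-kB motif (GGG, any 2 bases, TTTCC) or the AP-1 motif TGANTCA in capitals.
Tnfrsf9 (second start, chr4:150927749-150928048): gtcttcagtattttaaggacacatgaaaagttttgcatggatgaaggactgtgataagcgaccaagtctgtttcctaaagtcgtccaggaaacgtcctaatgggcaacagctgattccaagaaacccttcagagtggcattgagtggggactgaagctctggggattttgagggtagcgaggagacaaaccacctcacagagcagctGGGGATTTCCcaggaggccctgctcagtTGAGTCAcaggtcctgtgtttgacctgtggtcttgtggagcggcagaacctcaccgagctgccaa
Ltb (chr17:35194257-35194556): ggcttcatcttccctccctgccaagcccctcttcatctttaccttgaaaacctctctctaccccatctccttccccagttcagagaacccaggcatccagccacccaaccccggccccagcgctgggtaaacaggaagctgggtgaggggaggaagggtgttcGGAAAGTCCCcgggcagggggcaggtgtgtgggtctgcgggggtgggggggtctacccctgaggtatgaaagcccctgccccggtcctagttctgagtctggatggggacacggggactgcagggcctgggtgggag
Tnfsf13b (first start, chr8:10006217-10006516): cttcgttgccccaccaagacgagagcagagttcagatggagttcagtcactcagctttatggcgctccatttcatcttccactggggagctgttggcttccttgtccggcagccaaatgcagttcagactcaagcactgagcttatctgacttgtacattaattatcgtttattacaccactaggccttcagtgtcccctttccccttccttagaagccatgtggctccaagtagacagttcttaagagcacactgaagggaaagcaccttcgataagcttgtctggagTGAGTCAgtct
In the Tnfrsf9 window the NF-kB match began at position -43 and the AP-1 match at -15 relative to the start. The window of the first Tnfrsf9 start, which is not printed, held neither motif. In the Ltb window the NF-kB match lay on the minus strand and began at -87, and the capitals of the Tnfsf13b window mark an AP-1 match at 39. Both strands were searched, and no printed matches overlapped. RefSeq held promoters for 27 of the 34 members, 31 windows in all. Of these, 3 held the NF-kB motif (Ltb, Tnfrsf25 and the second Tnfrsf9 start). The AP-1 motif was in 6 windows (Fas, Tnfrsf8, the second Tnfrsf9 start, Tnfsf14 and both Tnfsf13b starts). Both Tnfsf13b windows overlap and hold the same AP-1 site, so 5 members held that motif. Over 32851 RefSeq mouse promoters of the same length of 300 bases, 1.63% held the NF-kB motif and 7.81% the AP-1 motif.

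Compared with healthy BALB/c spleen, 11 members were called in 4T1 tumors, where 12.3% of all genes were called. Of these 5 were higher (6.83% of all genes) and 6 lower (5.44%). In C26-GM tumors 10 were called against the same reference, with 11.4% of all genes called, 4 of them higher (4.26%) and 6 lower (7.13%). In C26-GM spleens 2 were called, with 6.14% of all genes called, 0 higher (2.32%) and 2 lower (3.83%). Compared with healthy C57BL/6 spleen, 10 members were called in EL-4 tumors, where 10.8% of all genes were called, 5 higher (6.42%) and 5 lower (4.4%). In MCA203 tumors 14 were called, with 10.4% of all genes called, 8 higher (5.01%) and 6 lower (5.42%). As shares of the family these counts were 32.4% in 4T1 tumors, 29.4% in C26-GM tumors, 5.88% in C26-GM spleens, 29.4% in EL-4 tumors and 41.2% in MCA203 tumors, so tumors ran above the share over all genes and C26-GM spleens near it. The median absolute change of members was 0.68 in 4T1 tumors, 0.55 in C26-GM tumors, 0.48 in EL-4 tumors and 0.63 in MCA203 tumors, beside 0.23, 0.32, 0.26 and 0.28 over all genes in the same order. The 3 BALB/c comparisons share their healthy spleen arrays, as do the 2 C57BL/6 ones.

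In cultures with GM-CSF+IL-6, 6 members were called against fresh marrow, where 14.1% of all genes were called, 3 higher (5% of all genes) and 3 lower (9.07%). In cultures with GM-CSF+G-CSF, 6 were called, with 13.9% of all genes called, 5 higher (4.48%) and 1 lower (9.37%). The family's share was 17.6% in each, close to that of all genes, and both comparisons use the same marrow arrays. Between the cultures 2 members were called, with 0.654% of all genes called, 0 higher with IL-6 than with G-CSF (0.456%) and 2 lower (0.198%). C26-GM tumors differed from C26-GM spleens in 5 members, with 6.16% of all genes called, 4 higher (2.79%) and 1 lower (3.36%). The 4T1 tumors differed from C26-GM tumors in 8, with 12.9% called, 3 higher (8.95%) and 5 lower (3.9%). EL-4 tumors differed from MCA203 tumors in 4, with 5.28% called, 1 higher (3.88%) and 3 lower (1.4%). Fresh marrow differed from healthy BALB/c spleen in 5, with 13.3% called, 1 higher (5.76%) and 4 lower (7.49%). Healthy C57BL/6 spleen differed from healthy BALB/c spleen in 2, with 1.4% called, 1 higher (0.654%) and 1 lower (0.742%). The tumor effect in the C57BL/6 models, taken as the mean of 2, differed from that in the BALB/c models for 7 members, with 4.93% called, 5 higher (2.83%) and 2 lower (2.11%). In all, 21 members were called at least once and 13 never. Centring on housekeeping genes moved the share of higher among called members by over 10 percentage points in GM-CSF+G-CSF cultures (5 higher and 2 lower), 4T1 less C26-GM tumors (2 and 7), EL-4 less MCA203 tumors (0 and 4) and the strain contrast (4 and 4), and quantile normalisation in EL-4 tumors (3 and 5), GM-CSF+IL-6 cultures (2 and 4), 4T1 less C26-GM tumors (2 and 6) and the strain contrast (4 and 3).

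**Figure D1:**
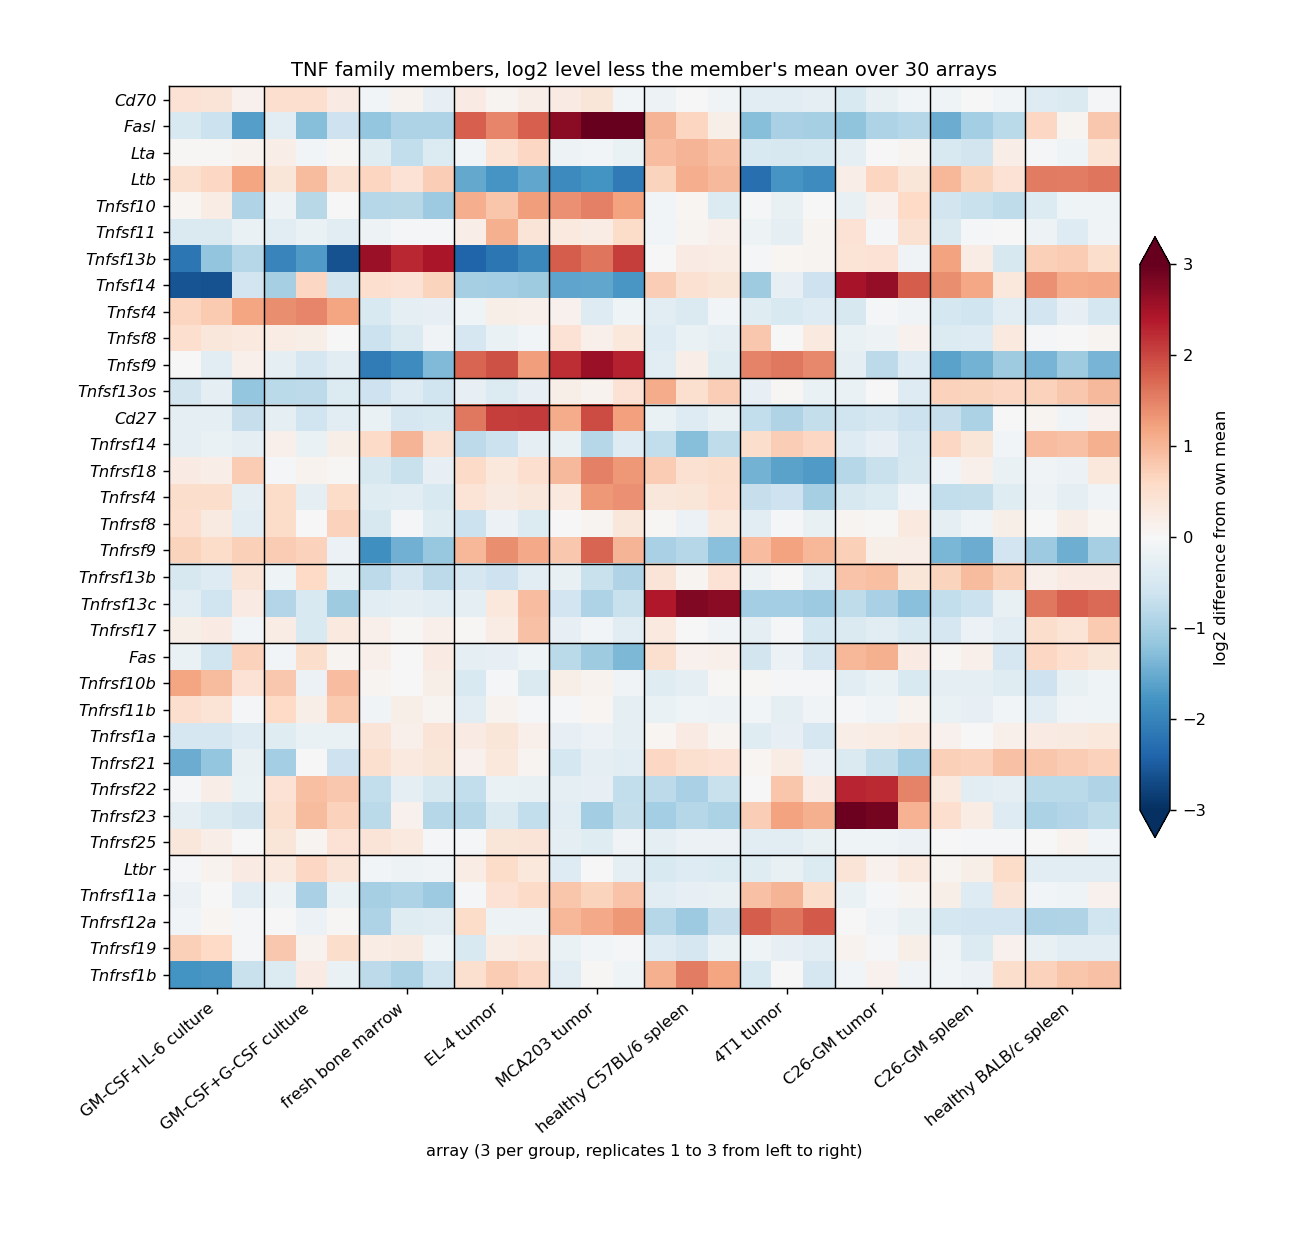
Log2 level of each of the 34 members on each of 30 arrays, as the difference from that member's own mean, with ligands at the top, then Tnfsf13os, costimulatory receptors, BAFF and APRIL receptors, death domain receptors and decoys, and other receptors. Red is above and blue below the mean, and the colours saturate at 3. The rows of Tnfsf13b, Tnfsf14, Fasl and Tnfsf9 vary most, with group means that span 4.6, 4.23, 4.19 and 4.14.

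Tnfrsf9 and its ligand Tnfsf9 were both higher in most tumors and in both cultures. Tnfrsf9 encodes 4-1BB (CD137), a costimulatory receptor of T cells and NK cells that activated myeloid cells also carry. It was at 8.06, 8.34 and 8.13 on 4T1 tumor arrays and at 7.84, 7.31 and 7.33 on C26-GM tumor arrays, against 6.06, 5.67 and 6.14 in healthy BALB/c spleen. On EL-4 tumor arrays it was at 8.14, 8.53 and 8.26 and on MCA203 tumor arrays at 7.94, 8.87 and 8.17, against 6.16, 6.28 and 5.89 in healthy C57BL/6 spleen. Every tumor array lay above every healthy spleen array of either strain. The changes were 2.22 ± 0.26 in 4T1 (adjusted p = 1.49e-07), 1.54 ± 0.26 in C26-GM (adjusted p = 4.33e-05), 2.20 ± 0.26 in EL-4 (adjusted p = 2.46e-07) and 2.22 ± 0.26 in MCA203 tumors (adjusted p = 2.01e-07). C26-GM spleens, at 5.77, 5.66 and 6.56, overlapped healthy BALB/c spleens (0.04 ± 0.26), and C26-GM tumors lay above them by 1.5 ± 0.26 (adjusted p = 0.000138). A second Tnfrsf9 probe set changed by 3.81, 2.18, 2.99 and 3.37 in 4T1, C26-GM, EL-4 and MCA203 tumors, and another, with a mean level of 3.11, by -0.21, -0.02, -0.05 and 0.10. Of 10 T cell markers, 6 were called higher in each C57BL/6 tumor, with 0 lower in EL-4 and 1 in MCA203, and 5 were called lower in each BALB/c tumor, with 0 higher. Their part in the Tnfrsf9 values was not tested.

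In culture Tnfrsf9 was at 7.80, 7.68 and 7.86 with GM-CSF+IL-6 and at 7.90, 7.82 and 6.96 with GM-CSF+G-CSF, against 5.29, 5.69 and 6.00 in fresh marrow. The groups did not overlap, and the changes were 2.12 ± 0.26 (adjusted p = 4.09e-07) and 1.90 ± 0.26 (adjusted p = 2.11e-06). Both calls were also made on the wide arrays alone, with changes of 2.20 and 2.16, and on the narrow arrays alone, with 2.08 and 1.77.

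Tnfsf9, the ligand 4-1BBL of antigen-presenting cells, was at 7.02, 7.11 and 6.97 in 4T1 tumors and at 5.25, 4.76 and 5.14 in C26-GM tumors, against 4.13, 4.46 and 4.13 in healthy BALB/c spleen. It was at 7.27, 7.44 and 6.78 in EL-4 tumors and 7.75, 8.13 and 7.85 in MCA203 tumors, against 5.20, 5.72 and 5.16 in healthy C57BL/6 spleen. None of these tumor groups overlapped its reference, and the C26-GM arrays were the lowest of the tumors. The change was called in 4T1 (2.80 ± 0.21, adjusted p = 3.38e-11), EL-4 (1.80 ± 0.21, adjusted p = 1.46e-07) and MCA203 tumors (2.55 ± 0.21, adjusted p = 2.46e-10). In C26-GM tumors it was 0.81 ± 0.21, under 2-fold, and 4T1 tumors exceeded C26-GM tumors by 1.99 ± 0.21 (adjusted p = 2.86e-08). C26-GM spleens, at 3.92, 4.11 and 4.46, overlapped healthy BALB/c spleens.

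Cultured cells held more Tnfsf9 than fresh marrow: 5.51, 5.22 and 5.68 with GM-CSF+IL-6 and 5.23, 5.03 and 5.23 with GM-CSF+G-CSF, against 3.44, 3.66 and 4.20. The changes were 1.71 ± 0.21 (adjusted p = 3.35e-07) and 1.40 ± 0.21 (adjusted p = 6.26e-06), with no overlap. Between healthy strains Tnfsf9 was 1.12 ± 0.21 higher in C57BL/6 than in BALB/c spleen (adjusted p = 0.00114), and 0.95 without the second C57BL/6 array, which is under 2-fold.

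**Figure D2:**
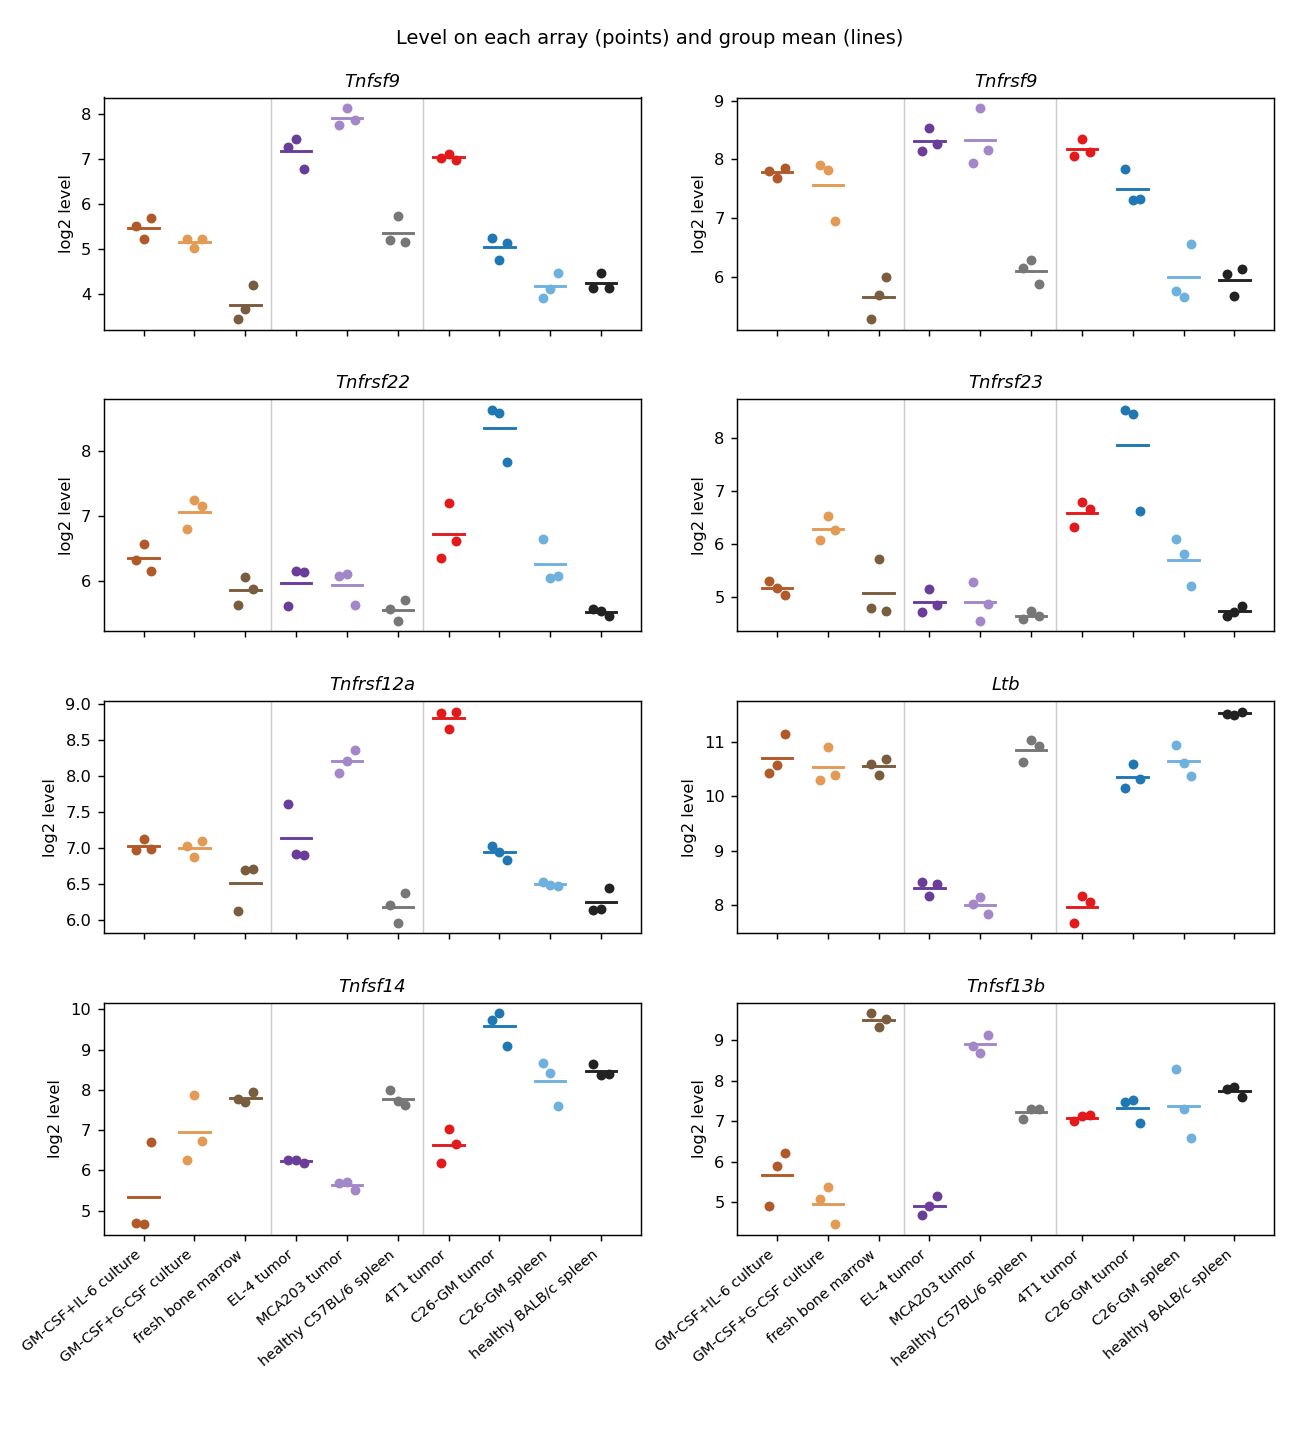
Log2 level (y axis) of 8 members on each array (points) and the group mean (line), for the cultures and fresh marrow (left), the C57BL/6 groups (middle) and the BALB/c spleen and tumor groups (right). Tnfrsf9 means lay between 7.5 and 8.33 in the 4 tumors, while Tnfrsf22 and Tnfrsf23 were highest in C26-GM tumors (8.36 and 7.88) and Tnfsf13b in fresh marrow (9.51).

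The decoy receptors Tnfrsf22 and Tnfrsf23, which in mouse bind TRAIL without a death domain, were highest in C26-GM tumors. Tnfrsf22 was at 8.64, 8.60 and 7.84 there and at 6.35, 7.20 and 6.61 in 4T1 tumors, against 5.56, 5.54 and 5.46 in healthy BALB/c spleen. Tnfrsf23 was at 8.54, 8.47 and 6.63 in C26-GM tumors and at 6.33, 6.80 and 6.66 in 4T1 tumors, against 4.63, 4.72 and 4.83 in healthy BALB/c spleen. All tumor arrays of both models lay above the healthy arrays, and the third C26-GM tumor array was the lowest of its group for both genes. Tnfrsf22 changed by 2.84 ± 0.23 in C26-GM (adjusted p = 2.02e-10) and 1.20 ± 0.23 in 4T1 tumors (adjusted p = 0.000191), and Tnfrsf23 by 3.15 ± 0.33 (adjusted p = 3.05e-08) and 1.87 ± 0.33 (adjusted p = 8.46e-05). The 4T1 change of Tnfrsf22 was under 2-fold, at 0.96 without the second 4T1 array and 0.93 with the mean of its probe sets. 4T1 less C26-GM tumors was -1.64 ± 0.23 for Tnfrsf22 (adjusted p = 3.27e-06, or -0.83 with the mean of its probe sets) and -1.29 ± 0.33 for Tnfrsf23 (adjusted p = 0.00386, arrays overlapping). The Tnfrsf23 difference was under 2-fold without the first or without the second C26-GM tumor array, at -0.96 and -0.99, and was not called with only the compared groups in the fit (adjusted p = 0.0561).

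In C26-GM spleens Tnfrsf22 was at 6.65, 6.04 and 6.08 and Tnfrsf23 at 6.09, 5.82 and 5.20, above every healthy BALB/c array but under 2-fold in the fit (0.73 ± 0.23 and 0.98 ± 0.33). The Tnfrsf23 change was called with array weights (1.08, adjusted p = 0.000197) and without the third C26-GM spleen array (1.23, adjusted p = 0.0235). C26-GM tumors exceeded C26-GM spleens by 2.10 ± 0.23 for Tnfrsf22 (adjusted p = 1.77e-07) and 2.18 ± 0.33 for Tnfrsf23 (adjusted p = 2.92e-05). In C57BL/6 mice neither gene was called: Tnfrsf22 was at 5.61, 6.16 and 6.14 in EL-4 tumors and 6.08, 6.10 and 5.63 in MCA203 tumors, against 5.56, 5.38 and 5.70 in healthy spleen. Tnfrsf23 was at 4.72, 5.14 and 4.85 and at 4.55 to 5.27 in the same tumors, against 4.57 to 4.73 in healthy spleen. The changes were 0.42 ± 0.23 and 0.39 ± 0.23 for Tnfrsf22 and 0.26 ± 0.33 and 0.25 ± 0.33 for Tnfrsf23. A probe set that carries the symbols of both genes, and so was outside the rule, was at 9.62, 9.63 and 8.98 in C26-GM tumors, against 5.78, 5.91 and 5.66 in healthy BALB/c spleen (3.63 ± 0.26).

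With GM-CSF+G-CSF both decoys rose over fresh marrow. Tnfrsf22 was at 6.80, 7.25 and 7.16, against 5.63, 6.05 and 5.88 in marrow (1.21 ± 0.23, adjusted p = 0.000156, or 0.72 with the mean of its probe sets). Tnfrsf23 was at 6.07, 6.53 and 6.27, against 4.79, 5.72 and 4.74 (1.21 ± 0.33, adjusted p = 0.00604). With GM-CSF+IL-6 they were at 6.33, 6.57 and 6.15 and at 5.30, 5.16 and 5.04, with changes of 0.49 ± 0.23 and 0.08 ± 0.33. The difference between the cultures was not called for either gene (-0.72 and -1.13 for IL-6 less G-CSF).

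Tnfsf13b, which encodes the B cell survival factor BAFF, had the widest span of group means in the family. In tumors of the same strain it was at 4.67, 4.90 and 5.14 on EL-4 arrays and at 8.88, 8.68 and 9.15 on MCA203 arrays, against 7.05, 7.31 and 7.30 in healthy C57BL/6 spleen. The 3 groups did not overlap. EL-4 tumors lay below healthy spleen (-2.32 ± 0.31, adjusted p = 1.8e-06) and MCA203 tumors above it (1.68 ± 0.31, adjusted p = 0.000146), and the difference between the tumors, EL-4 less MCA203, was -4.0 ± 0.31 (adjusted p = 4.33e-10). Between these tumors 1 of 10 monocyte and macrophage markers and 3 of 7 NK cell markers were called lower in EL-4, while 5 of 8 plasma cell, 4 of 9 B cell, 3 of 10 neutrophil, 3 of 7 epithelial and 2 of 9 fibroblast and endothelial markers were called higher. Of 7 dendritic cell markers 2 were higher and 1 lower, and of 10 T cell markers 1 was higher and 1 lower. The part of these markers in the Tnfsf13b difference was not tested. With the mean of its 3 probe sets the MCA203 change was 0.83. In BALB/c mice the 4T1 arrays at 7.0, 7.12 and 7.15, the C26-GM tumor arrays at 7.48, 7.52 and 6.97 and the C26-GM spleen arrays at 8.29, 7.30 and 6.58 were not called against healthy spleen at 7.79, 7.84 and 7.59.

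Fresh marrow held the highest Tnfsf13b of all groups, at 9.67, 9.33 and 9.53. The cultures were far lower, at 4.90, 5.89 and 6.21 with GM-CSF+IL-6 and 5.08, 5.37 and 4.45 with GM-CSF+G-CSF. The changes, -3.84 ± 0.31 (adjusted p = 3.27e-10) and -4.54 ± 0.31 (adjusted p = 1.54e-11), were the largest of the family in any comparison with marrow. The culture levels lay near or little above the median of all probe sets on an array, 4.85 to 5.15, which limits how exactly the size can be read. On the wide arrays alone the changes were -3.30 and -4.14. Fresh marrow lay above healthy BALB/c spleen by 1.77 ± 0.31 (adjusted p = 5.53e-05). Of 10 monocyte and macrophage markers, 4 were called lower and 1 higher than in marrow with IL-6, and 5 lower and 2 higher with G-CSF. In marrow against healthy BALB/c spleen, 9 of the 10 were called lower and 0 higher. The part of these markers in the Tnfsf13b differences was not tested.

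Tnfrsf13c, the BAFF receptor of B cells, was lower in every tumor-bearing group. It was at 4.31, 4.32 and 4.24 in 4T1 tumors, 4.58, 4.37 and 4.08 in C26-GM tumors and 4.61, 4.69 and 5.11 in C26-GM spleens, against 6.93, 7.13 and 7.04 in healthy BALB/c spleen. In EL-4 tumors it was at 5.04, 5.64 and 6.26 and in MCA203 tumors at 4.76, 4.41 and 4.67, against 7.75, 8.12 and 8.04 in healthy C57BL/6 spleen. No array of a tumor-bearing mouse reached a healthy one. The changes were -2.74 ± 0.23 in 4T1 (adjusted p = 4.27e-10), -2.69 ± 0.23 in C26-GM tumors (adjusted p = 6.2e-10), -2.23 ± 0.23 in C26-GM spleens (adjusted p = 6.56e-08), -2.32 ± 0.23 in EL-4 (adjusted p = 1.35e-08) and -3.36 ± 0.23 in MCA203 tumors (adjusted p = 9.68e-12). Fresh marrow, at 5.01, 5.05 and 5.02, was below healthy BALB/c spleen by a change of -2.01 ± 0.23 (adjusted p = 1e-07). EL-4 less MCA203 was 1.04 ± 0.23 (adjusted p = 0.00239). This difference fell to 0.73 without the third EL-4 array, the highest of its group, and to 0.93 without the second MCA203 array. With housekeeping centring it was 0.79, also under 2-fold.

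The level of B cell markers moved with Tnfrsf13c. Averaged over 9 such genes it was at 4.52 to 4.97 in 4T1 tumors, 4.50 to 4.78 in C26-GM tumors and 5.12 to 5.45 in C26-GM spleens, against 7.32 to 7.49 in healthy BALB/c spleen. It was at 6.38 to 6.50 in EL-4 and 4.98 to 5.13 in MCA203 tumors, against 7.89 to 8.10 in healthy C57BL/6 spleen. These markers were lower in the same groups, and their part in the Tnfrsf13c result was not tested. The 2 further receptors of BAFF and APRIL, Tnfrsf13b (TACI) and Tnfrsf17 (BCMA, the plasma cell receptor), were called in no comparison. Group means of Tnfrsf13b ran between 8.16 in fresh marrow and 9.62 in C26-GM spleen, and those of Tnfrsf17 between 3.66 in C26-GM tumors and 4.65 in healthy BALB/c spleen. Tnfrsf17 changes of -0.87 in 4T1 tumors (adjusted p = 0.0012), -0.98 in C26-GM tumors (adjusted p = 0.000339) and -0.91 in C26-GM spleens (adjusted p = 0.00154) passed the p threshold but stayed under 2-fold, and the C26-GM ones exceeded it after quantile normalisation (-1.16 and -1.03). Tnfrsf13b changes of -0.79 in EL-4 tumors (adjusted p = 0.00775) and -0.90 in MCA203 tumors (adjusted p = 0.00276) were likewise under 2-fold.

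**Figure D3:**
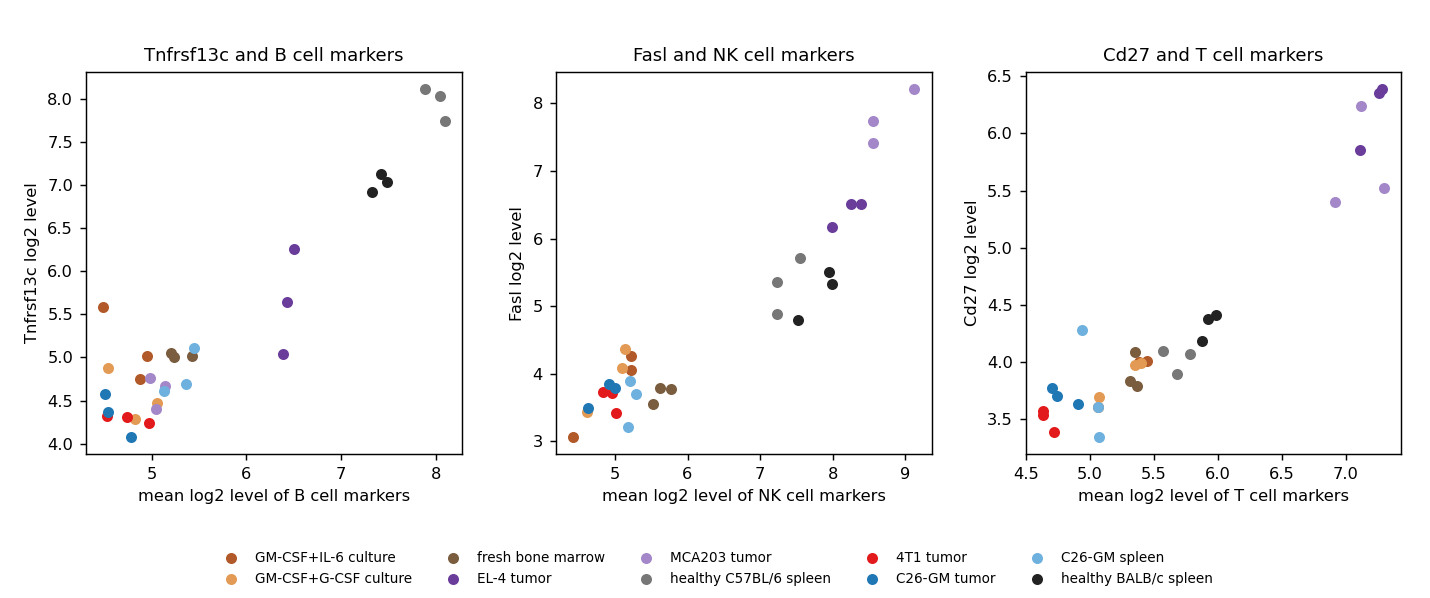
Log2 level of Tnfrsf13c, Fasl and Cd27 (y axes) against the mean log2 level of B cell, NK cell and T cell markers on the same array (x axes), with 1 point an array and 3 arrays a group. Healthy spleens hold the highest Tnfrsf13c (6.93 to 8.12), MCA203 tumors the highest Fasl (7.42 to 8.21) and the C57BL/6 tumors the highest Cd27 (5.40 to 6.39). The markers are read from the same RNA as the members.

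Ltb, one chain of the membrane lymphotoxin that binds the receptor Ltbr, was lower in all 4 tumors. It was at 7.68, 8.16 and 8.06 in 4T1 tumors and 10.14, 10.60 and 10.31 in C26-GM tumors, against 11.51, 11.49 and 11.55 in healthy BALB/c spleen. In C57BL/6 mice it was at 8.42, 8.17 and 8.38 in EL-4 tumors and 8.03, 8.14 and 7.83 in MCA203 tumors, against 10.62, 11.02 and 10.91 in healthy spleen. The tumors did not overlap their references, and C26-GM tumors stood well above the other three. The changes were -3.55 ± 0.19 in 4T1 (11.7-fold, adjusted p = 8.43e-14), -1.17 ± 0.19 in C26-GM (adjusted p = 3.01e-05), -2.53 ± 0.19 in EL-4 (adjusted p = 8.98e-11) and -2.85 ± 0.19 in MCA203 tumors (adjusted p = 6.8e-12). The C26-GM value was -0.99, just under 2-fold, when arrays were centred on housekeeping genes. 4T1 less C26-GM tumors was -2.38 ± 0.19 (adjusted p = 3.48e-10). C26-GM spleens, at 10.93, 10.60 and 10.37, changed by -0.88 ± 0.19. The cultures at 10.30 to 11.13 covered the marrow arrays at 10.39 to 10.68.

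Lta, the secreted lymphotoxin chain, was called once, lower in MCA203 tumors at 4.17, 4.25 and 4.12, against 5.24, 5.34 and 5.20 in healthy C57BL/6 spleen (-1.08 ± 0.18, adjusted p = 5.39e-05). It belongs to the 10 members whose highest group mean lay below 5.90, the 40th percentile over genes. Their receptor Ltbr was never called, with group means from 7.63 in healthy C57BL/6 spleen to 8.49 in GM-CSF+G-CSF cultures.

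Tnfsf14, or LIGHT, which binds Ltbr and the herpesvirus entry mediator Tnfrsf14, was highest in C26-GM tumors and low in the other three. It was at 6.19, 7.02 and 6.65 in 4T1 tumors and 9.74, 9.90 and 9.09 in C26-GM tumors, against 8.65, 8.37 and 8.41 in healthy BALB/c spleen. It was at 6.26, 6.26 and 6.19 in EL-4 and 5.69, 5.71 and 5.51 in MCA203 tumors, against 8.0, 7.72 and 7.63 in healthy C57BL/6 spleen. No tumor group overlapped its reference. The changes were -1.85 ± 0.39 in 4T1 (adjusted p = 0.000616), 1.10 ± 0.39 in C26-GM (adjusted p = 0.0375), -1.55 ± 0.39 in EL-4 (adjusted p = 0.0038) and -2.15 ± 0.39 in MCA203 tumors (adjusted p = 0.000133), and 4T1 less C26-GM tumors was -2.95 ± 0.39 (adjusted p = 1.53e-06). The rise in C26-GM tumors was not stable: a second probe set changed by 0.07 there, and the call ended without any 1 of 5 of the 6 arrays compared, with adjusted p from 0.0581 to 0.128. C26-GM tumors exceeded C26-GM spleens, at 8.67, 8.43 and 7.59, by 1.35 ± 0.39 (adjusted p = 0.0191). This call ended without the third C26-GM spleen array or without the first or the second tumor array, with adjusted p from 0.0595 to 0.122. It also ended without the third array of both groups (adjusted p = 0.084) and with the mean of probe sets (0.94, adjusted p = 0.173). Neutrophil markers averaged 10.05 to 10.79 in 4T1, 10.67 to 11.42 in C26-GM, 7.21 to 7.96 in EL-4 and 6.60 to 6.92 in MCA203 tumors, against 11.97 to 12.15 in healthy BALB/c and 11.93 to 12.03 in healthy C57BL/6 spleen, and their part in the Tnfsf14 values was not tested.

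In culture Tnfsf14 was at 4.68, 4.65 and 6.70 with GM-CSF+IL-6 and 6.26, 7.88 and 6.72 with GM-CSF+G-CSF, against 7.77, 7.69 and 7.94 in fresh marrow. The third IL-6 array and the second G-CSF array, which are the wide ones, were the highest of their groups. The IL-6 change was -2.45 ± 0.39 (adjusted p = 1.97e-05), or -1.10 on the wide array alone, and the G-CSF change of -0.85 ± 0.39 was not called. IL-6 less G-CSF was -1.61 ± 0.39 (adjusted p = 0.0345), with overlapping arrays. That call ended on the wide arrays alone (-1.18, adjusted p = 0.504), with only the compared groups in the fit (adjusted p = 1), and without 1 of 4 of the 6 arrays (adjusted p from 0.0896 to 0.246).

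The receptor Tnfrsf14 differed between strains. Healthy C57BL/6 spleens were at 5.13, 4.59 and 5.10, against 6.81, 6.74 and 6.94 in healthy BALB/c spleens (-1.89 ± 0.19, adjusted p = 1.9e-07). In BALB/c mice it was lower in C26-GM tumors, at 5.48, 5.61 and 5.38, than in healthy spleen (-1.34 ± 0.19, adjusted p = 4.86e-06), while 4T1 tumors at 6.39, 6.62 and 6.50 were not called. In both called contrasts the arrays did not overlap. The difference between the tumors, 4T1 less C26-GM, was 1.01 ± 0.19 (adjusted p = 0.000186), at the 2-fold limit. It was 0.95 without the third C26-GM tumor array or without the second 4T1 array. With housekeeping centring it was 0.87, after quantile normalisation 0.83 and with array weights 0.90, all under 2-fold. In C57BL/6 mice, EL-4 tumors at 5.08, 5.23 and 5.61 and MCA203 tumors at 5.64, 5.02 and 5.47 were within 2-fold of healthy spleen (0.37 ± 0.19 and 0.44 ± 0.19).

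Fasl, the ligand that triggers death through Fas, moved in opposite directions in the strains. It was at 3.42, 3.73 and 3.71 in 4T1 tumors, 3.49, 3.78 and 3.85 in C26-GM tumors and 3.21, 3.70 and 3.90 in C26-GM spleens, against 5.32, 4.79 and 5.51 in healthy BALB/c spleen. It was at 6.51, 6.17 and 6.51 in EL-4 and 7.42, 8.21 and 7.73 in MCA203 tumors, against 5.72, 5.36 and 4.88 in healthy C57BL/6 spleen. No group overlapped its reference. The falls were -1.59 ± 0.28 in 4T1 (adjusted p = 7.31e-05), -1.5 ± 0.28 in C26-GM tumors (adjusted p = 0.000163) and -1.61 ± 0.28 in C26-GM spleens (adjusted p = 0.000147), and the rises 1.08 ± 0.28 in EL-4 (adjusted p = 0.00477) and 2.47 ± 0.28 in MCA203 tumors (adjusted p = 1.23e-07). EL-4 less MCA203 was -1.39 ± 0.28 (adjusted p = 0.000927), or -0.88 with the mean of the 2 probe sets. The EL-4 rise was under 2-fold without the third healthy C57BL/6 array (0.86), with housekeeping centring (0.88) and after quantile normalisation (0.81). Fresh marrow at 3.55, 3.79 and 3.78 was lower than healthy BALB/c spleen (-1.5 ± 0.28, adjusted p = 0.000124).

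Of 7 NK cell markers, 6 were called lower in 4T1 tumors, 7 in C26-GM tumors and 6 in C26-GM spleens, with 0 higher. In fresh marrow 6 were lower and 1 higher, in EL-4 tumors 4 were higher and 1 lower, and in MCA203 tumors 3 were higher and 0 lower. Their mean level was 4.83 to 5.01 in 4T1 tumors, 4.62 to 5.01 in C26-GM tumors, 5.18 to 5.29 in C26-GM spleens and 5.52 to 5.78 in fresh marrow, against 7.53 to 7.98 in healthy BALB/c spleen. It was 8.0 to 8.40 in EL-4 and 8.56 to 9.13 in MCA203 tumors, against 7.23 to 7.56 in healthy C57BL/6 spleen. What part NK cells had in the Fasl values was not tested.

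Tnfsf10, or TRAIL, a ligand that can start cell death, and Cd27 rose in both C57BL/6 tumors, and the rise differed from the BALB/c tumor effect by 1.08 ± 0.29 (adjusted p = 0.0188) and 2.67 ± 0.26 (adjusted p = 2.87e-08). The Tnfsf10 call on that difference ended with housekeeping centring (adjusted p = 0.127) and without any 1 of 4 arrays, and the difference was under 2-fold after quantile normalisation (0.90) and with the mean of probe sets (0.98). Tnfsf10 was at 6.17, 5.91 and 6.32 in EL-4 and 6.45, 6.58 and 6.28 in MCA203 tumors, against 5.01, 5.14 and 4.66 in healthy spleen (1.20 ± 0.24, adjusted p = 0.000361, and 1.5 ± 0.24, adjusted p = 2.28e-05). The EL-4 value was 0.91 after quantile normalisation. In BALB/c mice the Tnfsf10 changes were 0.15 ± 0.24 in 4T1 tumors, 0.40 ± 0.24 in C26-GM tumors and -0.43 ± 0.24 in C26-GM spleens, none of them called. Cd27, a costimulatory receptor of T, B and NK cells, was at 5.86, 6.36 and 6.39 in EL-4 and 5.40, 6.24 and 5.52 in MCA203 tumors, against 4.09, 3.89 and 4.06 in healthy spleen. These arrays stood apart by more than the spread within any of the groups, and the changes were 2.19 ± 0.21 (adjusted p = 6.56e-09) and 1.71 ± 0.21 (adjusted p = 4.09e-07). In BALB/c mice Cd27 was at 3.34 to 4.27 in the tumor-bearing groups, against 4.37, 4.18 and 4.41 in healthy spleen, with no call. T cell markers averaged 7.11 to 7.28 in EL-4 and 6.92 to 7.30 in MCA203 tumors, against 5.57 to 5.78 in healthy C57BL/6 spleen, and their part in the Cd27 result was not tested. The EL-4 line is itself of T cell origin.

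**Figure D4:**
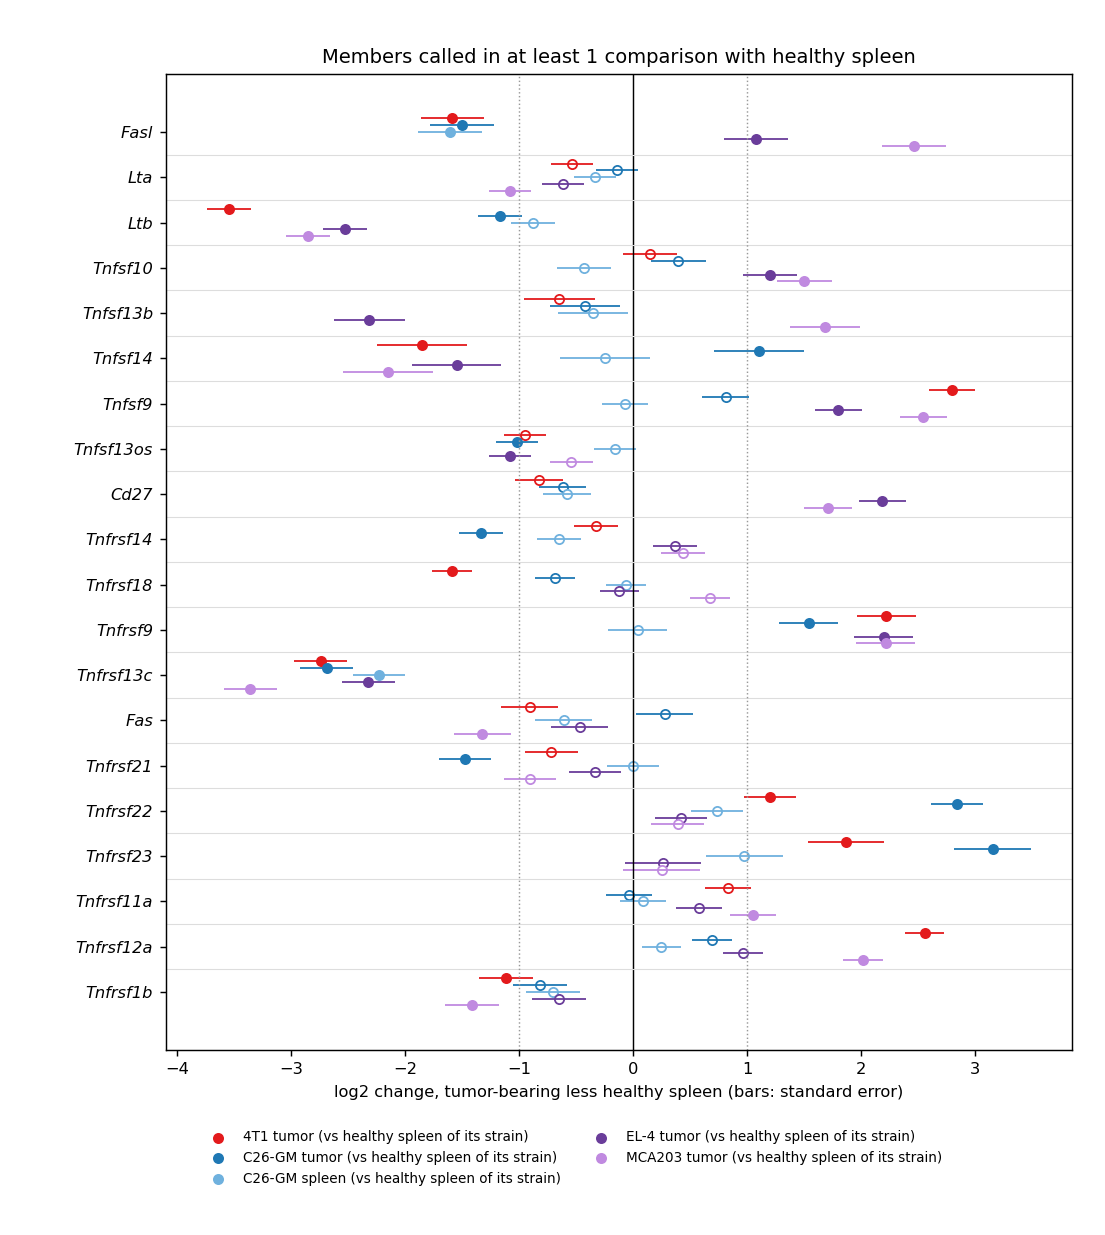
Log2 change (x axis) of each member called in at least 1 comparison with healthy spleen, for 5 tumor-bearing groups, each against the healthy spleen of its strain. Filled points passed adjusted p below 0.05 and 2-fold (dotted lines at 1 on either side), open points did not, and bars are standard errors. Ltb and Tnfrsf13c lie left of 0 in all groups, Tnfrsf9 lies right of it in the 4 tumors, and Fasl splits by strain.

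The other costimulatory receptors changed less. Tnfrsf18 (GITR) was lower in 4T1 tumors, at 5.33, 5.13 and 5.03, against 6.64, 6.57 and 7.06 in healthy BALB/c spleen (-1.59 ± 0.17, adjusted p = 5.08e-08). It was at 5.88 to 6.27 in C26-GM tumors (-0.68 ± 0.17, under 2-fold), and at 7.70 to 8.25 in MCA203 tumors, against 7.20 to 7.5 in healthy C57BL/6 spleen (0.67 ± 0.17). Tnfrsf4 (OX40) was never called, and its group means ran from 5.94 in 4T1 tumors to 7.70 in MCA203 tumors. Tnfsf4, its ligand OX40L, was called in cultures alone: 5.56, 5.70 and 6.09 with GM-CSF+IL-6 and 6.32, 6.39 and 6.10 with GM-CSF+G-CSF, against 4.46, 4.64 and 4.66 in fresh marrow. These arrays did not overlap, and the changes were 1.20 ± 0.16 (adjusted p = 2.09e-06) and 1.68 ± 0.16 (adjusted p = 9.66e-09), or 1.5 and 1.80 on the wide arrays alone. The IL-6 value was 0.98 after quantile normalisation. Dendritic cell markers were called higher for 3 of 7 genes with IL-6 and 2 of 7 with G-CSF, and their part in this rise was not tested.

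**Figure D5:**
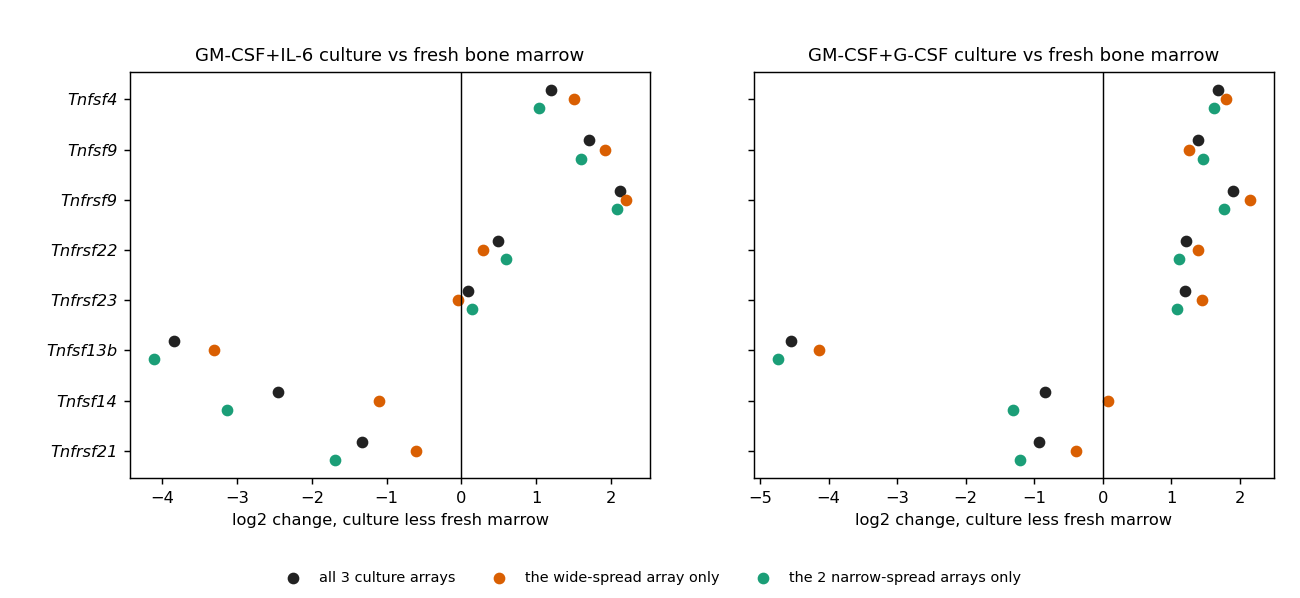
Log2 change (x axis) of 8 members in the GM-CSF+IL-6 culture (left) and the GM-CSF+G-CSF culture (right) against fresh marrow, over all 3 culture arrays (black), the wide array alone (orange) and the 2 narrow arrays alone (green). Tnfsf4, Tnfsf9, Tnfrsf9 and Tnfsf13b keep their direction in every reading, and the G-CSF value of Tnfsf14 crosses 0 (-1.31 narrow, 0.08 wide).

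Among receptors with a death domain, Tnfrsf1a, the main TNF receptor, was never called and varied little, with group means from 9.55 in GM-CSF+IL-6 cultures to 10.32 in fresh marrow. Tnfrsf21 (death receptor 6) was lower in C26-GM tumors, at 8.27, 7.97 and 7.69, against 9.52, 9.46 and 9.38 in healthy BALB/c spleen and 9.41, 9.38 and 9.57 in C26-GM spleens. The changes were -1.48 ± 0.23 (adjusted p = 1.54e-05) and -1.47 ± 0.23 (adjusted p = 3.89e-05), and the C26-GM tumor arrays lay below all arrays of both references. In GM-CSF+IL-6 cultures Tnfrsf21 was at 7.22, 7.54 and 8.46, against 9.17, 8.99 and 9.06 in marrow (-1.33 ± 0.23, adjusted p = 5.48e-05), and on the wide array alone the change was -0.61 and not called. Fas was lower in MCA203 tumors, at 6.42, 6.18 and 5.90, against 7.72, 7.37 and 7.38 in healthy C57BL/6 spleen (-1.32 ± 0.25, adjusted p = 0.0002). It was also lower in 4T1 tumors, at 6.69, 7.05 and 6.75, than in C26-GM tumors, at 8.24, 8.32 and 7.48 (-1.18 ± 0.25, adjusted p = 0.000568), with no overlap in either case.

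Of the receptors that bind TRAFs without a death domain, Tnfrsf12a (Fn14, the TWEAK receptor) gave the largest rise. It was at 8.86, 8.65 and 8.89 in 4T1 tumors and 7.03, 6.94 and 6.83 in C26-GM tumors, against 6.14, 6.15 and 6.45 in healthy BALB/c spleen. It was at 7.61, 6.91 and 6.90 in EL-4 and 8.04, 8.20 and 8.35 in MCA203 tumors, against 6.21, 5.96 and 6.37 in healthy C57BL/6 spleen. All tumor arrays exceeded their references. The change was called in 4T1 (2.56 ± 0.17, adjusted p = 8.17e-12) and MCA203 tumors (2.02 ± 0.17, adjusted p = 8.51e-10), and not in C26-GM (0.69 ± 0.17) or EL-4 tumors (0.96 ± 0.17). Tested directly, 4T1 less C26-GM was 1.87 ± 0.17 (adjusted p = 4.63e-09) and EL-4 less MCA203 -1.06 ± 0.17 (adjusted p = 9.32e-05), which was under 2-fold without the second or the third EL-4 array or without the third MCA203 array (-0.94, -0.94 and -0.98). Epithelial markers were called higher for 6 of 7 genes in 4T1, 1 of 7 in C26-GM, 6 of 7 in EL-4 and 3 of 7 in MCA203 tumors, and fibroblast and endothelial markers for 4, 3, 5 and 4 of 9 in the same order, and their part was not tested.

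Tnfrsf1b, the second TNF receptor, was lower in 4T1 tumors, at 8.65, 9.12 and 8.62, against 9.81, 9.94 and 9.99 in healthy BALB/c spleen (-1.12 ± 0.24, adjusted p = 0.000612, or -0.88 with the mean of its probe sets). In MCA203 tumors it was at 8.78, 9.15 and 8.98, against 10.19, 10.66 and 10.31 in healthy C57BL/6 spleen (-1.41 ± 0.24, adjusted p = 4.35e-05). Fresh marrow, at 8.33, 8.17 and 8.53, was lower than healthy BALB/c spleen (-1.57 ± 0.24, adjusted p = 6.81e-06). None of these groups overlapped. GM-CSF+IL-6 cultures, at 7.32, 7.37 and 8.45, were lower than GM-CSF+G-CSF cultures, at 8.71, 9.37 and 8.91 (-1.28 ± 0.24, adjusted p = 0.00354), but the call ended on the wide arrays alone (-0.92, adjusted p = 0.464) and with only the compared groups in the fit (adjusted p = 1). Tnfrsf11a (RANK) was higher in MCA203 tumors, at 7.09, 6.91 and 7.11, against 5.94, 6.00 and 6.03 in healthy C57BL/6 spleen (1.05 ± 0.20, adjusted p = 0.000249), or 0.94 after quantile normalisation. Its ligand Tnfsf11 was never called, with group means between 3.19 and 4.09.

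Tnfsf13os, transcribed opposite the APRIL gene, was lower in C26-GM tumors, at 5.74, 5.92 and 5.54, against 6.62, 6.74 and 6.90 in healthy BALB/c spleen (-1.02 ± 0.19, adjusted p = 0.000124). It was lower in EL-4 tumors, at 5.69, 5.52 and 5.69, against 7.05, 6.41 and 6.68 in healthy C57BL/6 spleen (-1.08 ± 0.19, adjusted p = 6.62e-05), and in fresh marrow, at 5.30, 5.55 and 5.33, than in healthy BALB/c spleen (-1.36 ± 0.19, adjusted p = 1.75e-06). The C26-GM and EL-4 calls were near the 2-fold limit, and all 3 changes fell below it with the mean of its probe sets (-0.46, -0.68 and -0.53). The C26-GM call was also under 2-fold without the third C26-GM tumor array (-0.92) or the third healthy BALB/c array (-0.95), and the EL-4 call without the first healthy C57BL/6 array (-0.91).

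The remaining members were called nowhere, and most were dim. Group means lay between 3.50 and 4.25 for Cd70, the ligand of CD27, between 4.63 and 5.40 for Tnfsf8, the ligand of CD30, and between 4.09 and 4.92 for Tnfrsf8, CD30 itself. They lay between 3.74 and 4.94 for Tnfrsf10b, the mouse TRAIL death receptor, between 4.11 and 4.82 for Tnfrsf11b, the soluble RANKL decoy osteoprotegerin, between 4.08 and 4.92 for Tnfrsf19 (TROY), and between 3.74 and 4.33 for Tnfrsf25, the death receptor of TL1A. In all 7 the highest group mean was below 5.90.

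Downstream genes were read from 2 lists of general knowledge, chosen with earlier results of these arrays known. Counts of 1 to 5 called genes a list stand beside 12.3% of all genes called in 4T1 tumors, 11.4% in C26-GM tumors, 6.14% in C26-GM spleens, 10.8% in EL-4 tumors, 10.4% in MCA203 tumors, 14.1% in IL-6 and 13.9% in G-CSF cultures, so that 2 of 14 lies near the share of all genes in most comparisons and shows nothing particular to the list. Of 14 measured adaptors and death signalling genes, 0 were called higher and 2 lower in each BALB/c tumor-bearing group: the adaptor Traf1 (-2.63 in C26-GM tumors and -3.12 in C26-GM spleens) and the pro-apoptotic Bid (-1.12 in 4T1 tumors, -1.51 in C26-GM tumors and -1.16 in C26-GM spleens), with the stress kinase Map3k5 (-1.58) in place of Traf1 in 4T1. In EL-4 tumors the necroptosis kinase Ripk3 (1.43) was higher and Map3k5 (-2.04) and Traf1 (-1.70) lower. In MCA203 tumors Map3k5 (-1.63), Traf1 (-1.54), Birc3 (-1.09) and Birc2 (-1.08), both Birc genes encoding ubiquitin ligases that hold back cell death, were lower, and Ripk3 (1.05), named after its value was seen, was higher. In cultures Map3k5 was lower with IL-6 (-1.55) and with G-CSF (-1.43), together with Cflar (-1.03), an inhibitor of caspase-8 activation, with IL-6, and with Birc2 (-1.01) with G-CSF, where Ripk3 (1.20) was higher. Traf1 was also higher in 4T1 than in C26-GM tumors (1.84) and in healthy C57BL/6 than healthy BALB/c spleen (1.07), and lower in fresh marrow than in healthy BALB/c spleen (-3.95), as was Birc3 (-1.56).

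Of 13 measured NF-kB subunits and feedback genes, the noncanonical subunit Relb was lower in 4T1 (-1.41), C26-GM (-1.89), EL-4 (-1.13) and MCA203 tumors (-2.55), in C26-GM spleens (-1.93) and in fresh marrow against healthy BALB/c spleen (-2.11), and higher in both cultures (1.68 with IL-6 and 1.64 with G-CSF). The inhibitor Tnfaip3 (A20) was higher in 4T1 (1.98), C26-GM (1.06) and EL-4 tumors (1.44). It was the only gene of its list called higher in a tumor against healthy spleen. Lower genes included the inhibitor Nfkbie in C26-GM tumors (-1.04) and spleens (-1.37) and in marrow (-1.83), the deubiquitinase Cyld in C26-GM tumors (-1.11), the kinase Map3k14 (NIK) in 4T1 tumors (-1.10), MCA203 tumors (-1.14) and marrow (-1.36), and the kinase Ikbkb in MCA203 tumors (-1.21). Relb (1.42) and Nfkb2 (1.0) were higher in EL-4 than in MCA203 tumors, and Relb (1.32) was higher in healthy C57BL/6 than healthy BALB/c spleen. List medians in 4T1, C26-GM, EL-4 and MCA203 tumors were -0.39, -0.25, -0.14 and -0.30 for the first list and -0.36, -0.29, -0.05 and -0.41 for the second, beside -0.01, 0.11, 0.02 and 0.14 over all genes. Beside these values, B cell markers were called lower for 8 of 9 genes in 4T1 tumors, C26-GM tumors, C26-GM spleens and MCA203 tumors, 7 in EL-4 tumors and marrow and 2 in each culture, with 0 higher. Of 7 dendritic cell markers, 5 were called lower in 4T1 tumors and in marrow, 4 in C26-GM tumors, C26-GM spleens and MCA203 tumors and 3 in EL-4 tumors, with 1 higher in MCA203 tumors, while 3 were higher with IL-6 and 2 with G-CSF. The part of either marker list in the pathway values was not tested.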

How the data were processed

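CD11b+ cells of 30 mouse samples were hybridised to Affymetrix MOE430 2.0 arrays. The deposited values are log2 intensities made by the authors with RMA, per the submitters' processing notes; its version, and whether all arrays were processed together, are not given in the sources used here. Samples were grouped by title. Gene symbols came from GEO's platform annotation, and each gene was read from 1 probe set, the brightest on average among those of that symbol alone. R 4.3.3 and limma 3.58.1 fitted 10 group means over 18194 genes in 1 model, without a filter on low values, and p-values were adjusted by Benjamini-Hochberg within each comparison. The model was tested on simulated data. Alternatives were housekeeping centring, renewed quantile normalisation, array weights, a low filter, other probe set rules, only the compared groups, a replicate block, another variance prior and leaving out each replicate. Those without the third C26-GM arrays and for the narrow or wide culture arrays were added after seeing the data. Every called member was named with its change, and up to 4 called genes of each pathway list per comparison. The members and lists were chosen with earlier results of these data known.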

Additional observations from a re-analysis of the deposited data

Results flagged for a closer look

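For 7 members the tumor effect in C57BL/6 mice (mean of EL-4 and MCA203 tumors, each less healthy C57BL/6 spleen) differed from that in BALB/c mice (mean of C26-GM and 4T1 tumors, each less healthy BALB/c spleen), as a contrast of the limma fit. Strain, tumor line and, for C26-GM, the difference in Xist cannot be told apart in it. The contrast was 3.31 ± 0.34 for Fasl (adjusted p = 1.2e-07), with rises in both C57BL/6 tumors and falls in both BALB/c tumors. It was 2.67 ± 0.26 for Cd27 (adjusted p = 2.87e-08). For both genes the 7 NK cell and 7 of 10 T cell markers were called higher in the same contrast, and their part was not tested. For Tnfrsf18 it was 1.41 ± 0.21 (adjusted p = 3.9e-05), where 4T1 tumors alone were called. For Tnfrsf14 it was 1.24 ± 0.24 (adjusted p = 0.000776), beside a healthy C57BL/6 level already 1.89 below healthy BALB/c (change of -1.89). For Tnfsf10 it was 1.08 ± 0.29 (adjusted p = 0.0188), a call that ended with housekeeping centring (adjusted p = 0.127), with quantile normalisation (0.90), with the mean of probe sets (0.98) and without any 1 of 4 arrays. The contrast was -2.26 ± 0.41 for Tnfrsf23 (adjusted p = 0.000408) and -1.61 ± 0.28 for Tnfrsf22 (adjusted p = 0.000241, or -0.91 with the mean of its probe sets), both higher in the BALB/c tumors. Neutrophil markers were called lower in this contrast for 10 of 10 genes. Of 10 monocyte and macrophage markers, 4 were called higher and 0 lower. The part of these markers in the values of the 7 members was not tested.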

How the results depend on the processing

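Of 236 counts of called members under alternatives, 225 stayed within 1.5 times the reported count. Of 1085 values of called members none reversed and 54 lost their call. From the fits without single replicates, these values hold only the smallest and the largest change of each called member. Calls lost in the other such fits come on top of the 54. GM-CSF+IL-6 less GM-CSF+G-CSF cultures gave 0 calls with only the compared groups, 0 with wide culture arrays only, 1 with the mean of probe sets, 1 with the replicate block and 1 to 2 without single replicates. C26-GM tumors less C26-GM spleens gave 8 with housekeeping centring. Without single replicates EL-4 less MCA203 tumors gave 2 to 5 (2 without the third EL-4 array) and healthy C57BL/6 less healthy BALB/c spleen 1 to 3 (1 without the second C57BL/6 array). In 0 of 13 comparisons did all same-numbered arrays deviate together (r over 0.1). Some missed this rule by 1 pair, with r of 0.37, 0.06 and 0.47 between C26-GM tumors and C26-GM spleens. Between MCA203 tumors and healthy C57BL/6 spleens r was 0.14, 0.09 and 0.17. Whether same-numbered arrays came from the same mouse is not given. The replicate block changed no other call than that of Tnfsf14 between the cultures (-1.61, adjusted p = 0.051). Housekeeping centring moved the median over all genes by 0.18 in C26-GM tumors, -0.19 in EL-4 tumors, -0.12 in GM-CSF+IL-6 cultures, 0.21 in C26-GM tumors less spleens, -0.15 in 4T1 less C26-GM tumors, -0.24 in EL-4 less MCA203 tumors and -0.18 in the strain contrast, and quantile normalisation by -0.11 in MCA203 tumors. Alternatives also added calls, among them Fas (1.10), Tnfsf10 (1.04) and Tnfsf9 (1.09) in C26-GM tumors less spleens with housekeeping centring, Tnfsf14 in the strain contrast with only the compared groups and with low genes left out (-1.47 in each), and, with wide culture arrays only, Tnfrsf13b (1.08 with IL-6 and 1.30 with G-CSF), Tnfrsf18 with IL-6 (1.23) and Tnfrsf1b with G-CSF (1.03). Signal near background limits the 10 of 34 members that are low in every group, and also the size of changes with 1 low group, such as those of Fasl, Cd27, Tnfrsf13c, Tnfsf9 and Tnfsf13b. Wide arrays alone leave 1 array a culture, assumed to vary like the other groups.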
